A study of Mus musculus with 27 samples.

Results

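The genes described here are 34 mouse genes of the integrated stress response and the unfolded protein response: ATF4, its target genes for amino acid supply, and the chaperones and degradation factors of the endoplasmic reticulum (ER). They were taken by symbol, with the brightest probeset (a set of probes for 1 transcript) per gene and a mean of at least 6 on the log2 scale over 27 arrays. Of the 34 genes, 33 passed, among 13989 genes and 16283 probesets tested of 35556 on the array. Slc7a11 lay just outside at a mean of 5.25, and Vldlr at 6.36 and Aldh1l2 at 6.50 were the members just inside. Only Pdia4 had a second probeset, and all levels below are log2 intensities of 1 probeset, so that levels of different genes were not compared.

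The arrays measured mouse embryonic stem (ES) cells after small interfering RNA (siRNA) knockdown. MOF is the histone H4 lysine 16 acetyltransferase encoded by Kat8, and MSL1 is the scaffold of one of its complexes. In the female line PGK12.1 the groups were MOF siRNA in experiments 1, 2 and 3, MSL1 siRNA in A, B and C, NSL1 siRNA in C, D and E, and MOF plus MSL1 siRNA in D and E. MOF siRNA was also given to the male lines WD44 and E14 in 2 experiments each. Each of the 12 experiments had 1 negative control siRNA array, giving 15 knockdown and 12 control arrays. MSL1 and NSL1 shared the control of C, and NSL1 and the double knockdown shared those of D and E. PGK12.1 came from blastocysts of a 129 female and a (129 X PGK)F1 male, WD44 from BL6 blastocysts, and the E14 hybrid cells from a BL6 female and a Cast male. Cells grew on feeder fibroblasts (MEF) with LIF, were taken off the feeders on gelatin, and were treated for 48 h with 100 pmol of siRNA. In experiments 1 and 2 knockdown and control cells had another round of 24 h with 400 pmol, and the double knockdown had 50 pmol of Msl1 siRNA added to the MOF siRNA.

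As background, 3 sensors in the ER membrane start the unfolded protein response. PERK (Eif2ak3) phosphorylates the translation factor eIF2, which lowers protein synthesis while the Atf4 message is translated better. IRE1 (Ern1) splices the Xbp1 message, and ATF6 is cut to release a transcription factor. ATF4 also answers amino acid shortage through other eIF2 kinases, so its amino acid targets and the ER chaperones can move apart. ATF4 and XBP1 are controlled largely after transcription, which array levels of their messages do not show. The arrays measured RNA of whole cultures, in which fewer cells of a type and less RNA per cell cannot be told apart.

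The targeted genes were checked first. Kat8 fell by 1.22 in PGK12.1 with MOF siRNA, by 0.87 in the double knockdown, by 0.84 in WD44 and by 0.68 in E14, on the log2 scale. Msl1 fell by 0.97 with MSL1 siRNA and by 0.46 in the double knockdown. For the arrays labelled NSL1 no target could be checked: of the Kansl1 probesets 1 was called lower, at -0.24, and 1 higher, at 0.50, while Nsl1 differed by 0.16 without passing. The Kansl1 probeset that rose was also called higher with MOF siRNA in PGK12.1 (0.50) and in WD44 (0.745). The brighter Kansl1 probeset, which fell, was called higher with MOF siRNA in PGK12.1 (0.22) and was called lower in no other comparison. The arrays are called the NSL1 arrays below, after their label. Array medians ran between 6.22 and 7.96 in steps between sets of experiments, so the fit took each experiment as a block. Differences given for a single array are against the control of its own experiment. Where an experiment held more than 1 knockdown (C, D and E), fitted differences also drew on the other knockdown array. Fitted differences can therefore depart from knockdown minus own control. In experiments A to C between 8.57% and 13.8% of tested probesets had the same value in a knockdown array and its control. The share was 2.16% to 2.87% in PGK12.1 experiments 1 to 3, WD44 and E14, whose values have as many decimals. Values of D and E have more decimals, and the share there was 0.0184% to 0.0553%. The ES cell markers lay between the 88.8 and 99.5 percentile of all probesets by mean level. Of 10 feeder fibroblast markers, 5 passed the filter and Lum, Postn, Dcn and Lox lay below it by their mean over all arrays. The log2 of the summed level of the 9 on the array was 11.25 to 11.49 in WD44, knockdown and control. It was 9.32 to 9.95 in the other groups. Array medians were also highest in WD44.

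Promoters of 31 of the 34 genes were found in RefSeq (GRCm38.p6), as short windows around each start. Motif matches are given as a description. TGATGNAA, the core of the element that ATF4 and C/EBP factors bind (CARE), was found on either strand in 8 of 31 genes (25.8%), against 4.51% of 27025 genes. The ER stress element, CCAAT and CCACG 9 bases apart, was found in 4 of 31 (12.9%), against 0.137%. TGACGTGG, the core of the XBP1 element, was found in 0 of 31, against 0.714%. CARE lay in the promoters of Asns, Atf3, Chac1, Herpud1, Nupr1, Slc7a11, Trib3 and Vldlr, and the ER stress element in those of Calr, Creld2, Hsp90b1 and Hspa5. The stretches below are 5′ to 3′ on the strand of the gene, with the match in capitals, for the CARE genes that were called in the NSL1 arrays with the stretch shown wholly before the start, and for Hspa5, which differed between lines. Atf3 is at chr1:191183396-191183483 (minus strand), Chac1 at chr2:119351009-119351096 (plus), Nupr1 at chr7:126625533-126625620 (minus), Herpud1 at chr8:94386277-94386364 (plus) and Hspa5 at chr2:34771985-34772083 (plus).
Atf3: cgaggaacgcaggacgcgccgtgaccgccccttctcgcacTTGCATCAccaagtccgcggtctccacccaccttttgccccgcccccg
Chac1: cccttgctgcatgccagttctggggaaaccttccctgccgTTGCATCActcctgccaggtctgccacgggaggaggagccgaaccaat
Nupr1: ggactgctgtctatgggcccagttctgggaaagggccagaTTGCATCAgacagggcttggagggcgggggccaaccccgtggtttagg
Herpud1: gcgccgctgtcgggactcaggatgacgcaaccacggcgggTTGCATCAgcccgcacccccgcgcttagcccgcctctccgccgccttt
Hspa5: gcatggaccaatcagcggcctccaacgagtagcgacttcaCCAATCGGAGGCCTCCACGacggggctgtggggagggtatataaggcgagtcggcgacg
The 4 CARE matches above read TTGCATCA, which is the reverse complement of the motif, and a match is a description of the letters and not a bound site.

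The module did not move in 1 direction in the NSL1 arrays or with MOF siRNA, and few of its genes passed the test in the other knockdowns. The arrays labelled NSL1 had 14 of 33 genes called by limma with the experiment as a block and Benjamini-Hochberg adjustment over 16283 probesets, at an adjusted p under 0.05. Of these, 5 were higher and 9 lower, against 39.8% of all tested probesets called in that comparison, 18.4% higher and 21.4% lower, so the members' share lay near the background. MOF siRNA in PGK12.1 called 5 of 33 (4 higher, 1 lower), against a background of 23.4%, with 9.49% higher and 13.9% lower. MOF plus MSL1 called 3 (1 higher, 2 lower), against 6.44%, with 3.24% higher and 3.19% lower. MOF in WD44 called 2 (1 higher, 1 lower), against 12.4%, with 4.38% higher and 7.98% lower. MOF in E14 called 4, which were lower, against 8.33%, with 3.6% higher and 4.73% lower. MSL1 siRNA called 0 of 33, with 5 at an unadjusted p under 0.05, against 0.184%, with 0.0983% higher and 0.086% lower. In these comparisons the share of members called was 42.4% for NSL1, 15.2% for MOF in PGK12.1, 9.09% for the double knockdown and 6.06% in WD44, near or below the background in the NSL1, MOF PGK12.1 and WD44 comparisons. The median over the members lay between -0.05 for NSL1 and 0.015 in WD44, and that over all genes tested between -0.02 in WD44 and 4e-04 in the double knockdown. With each array centred on its median, the share of called probesets that were higher was 60.7% in place of 40.5% for MOF in PGK12.1, 77.6% in place of 35.5% in WD44 57% in place of 43.2% in E14 and 54.8% in place of 46.3% in the NSL1 arrays. Across the 6 comparisons 17 genes were called in none and 16 in at least 1, and Trib3 was the only one called in both directions.

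**Figure D1:**
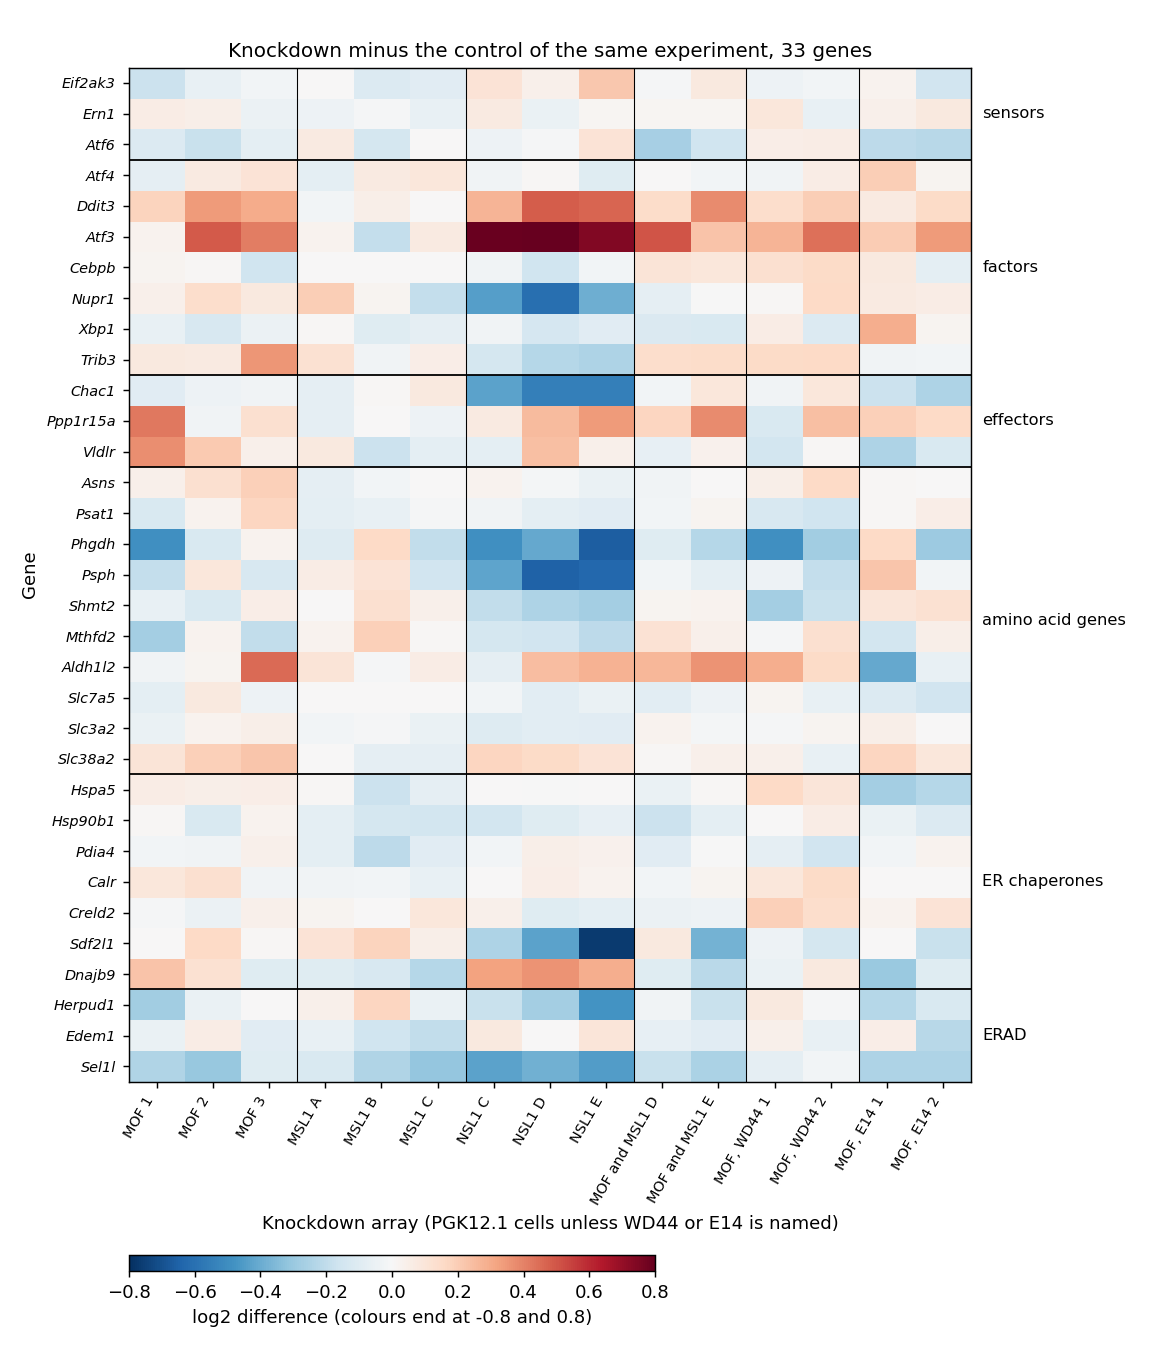
Log2 difference of each of the 33 genes (rows, grouped by role) in each of the 15 knockdown arrays (columns), knockdown minus the control of the same experiment; red is higher and blue lower in the knockdown. The Atf3 row is red in 14 of 15 columns and the Sel1l row is blue in 15 of 15, while Chac1, Phgdh, Psph and Nupr1 are dark blue in the 3 NSL1 columns.

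Among the sensors, Atf6 was the only one called, in the double knockdown and in E14. Atf6 was at 9.06 and 9.07 in double knockdown arrays D and E, against 9.32 and 9.23 in their controls. It fell by 0.23 ± 0.06 on the log2 scale (SE, n = 2 experiments, limma adjusted p = 0.02804). In E14 it was at 10.02 and 10.01 with MOF siRNA, against 10.23 in both controls, a fall with a log2 difference of -0.215 ± 0.06 (SE, n = 2, limma adjusted p = 0.04391). Knockdown and control arrays did not overlap in either case. How many of all genes tested separated in this way, here or in the cases below, was not counted. In MOF arrays 1, 2 and 3 of PGK12.1 Atf6 was below its control each time, at 8.36, 8.36 and 8.41 against 8.47, 8.54 and 8.49, and did not pass (limma adjusted p = 0.08968). In the NSL1 arrays it differed by 0.01, and the difference between NSL1 and the double knockdown passed the test at 0.25 (limma adjusted p = 0.006242), though not without the replicate block (limma adjusted p = 0.1039). Eif2ak3 was above its control in the 3 NSL1 arrays, with a log2 difference of 0.13 that missed the threshold (limma adjusted p = 0.05389). Ern1 differed by between -0.05 and 0.06 over the 6 knockdowns.

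Atf4 itself, the factor that gives the module its name, was not called in any of the 6 comparisons. Its log2 differences ran from -0.10 in NSL1 array E to 0.20 in E14 array 1 over the 15 knockdown arrays. In the NSL1 arrays C, D and E it was at 9.16, 9.43 and 9.24, against 9.19, 9.42 and 9.34 in their controls (limma adjusted p = 0.4905). The 95% interval of that difference, from -0.16 to 0.06, bounds the change in Atf4 message in these arrays.

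Atf3, a stress-induced repressor, and Ddit3 (CHOP), a proapoptotic factor, were the transcription factors that rose. Atf3 was at 8.72, 8.89 and 8.75 in NSL1 arrays C, D and E, against 7.93, 8.00 and 8.01 in their controls. The groups did not overlap and Atf3 rose 1.73-fold, or 0.79 ± 0.08 on the log2 scale (SE, n = 3, limma adjusted p = 1.828e-06). With MOF siRNA in PGK12.1 it was at 6.83, 7.12 and 7.49, against 6.80, 6.63 and 7.08 in controls 1, 2 and 3. That rise of 0.31 ± 0.08 (SE, n = 3, limma adjusted p = 0.01223) was almost absent in experiment 1, at 0.03, and was lost without either array of experiment 2 (0.22, limma adjusted p = 0.1358) or of experiment 3 (0.26, limma adjusted p = 0.09624). In the double knockdown Atf3 was at 8.50 and 8.24, against 8.00 and 8.01, and rose by 0.35 ± 0.09 (SE, n = 2, limma adjusted p = 0.0385). That call held in 4 of 12 alternatives and was lost with quantile normalization and with no filter on low values. In WD44 Atf3 was at 9.14 and 9.44 with MOF siRNA, against 8.87 and 9.0, and rose by 0.355 ± 0.10 (SE, n = 2, limma adjusted p = 0.03276). In E14 it was at 7.98 and 8.10, against 7.78 and 7.76, which did not pass (0.27, limma adjusted p = 0.107). With MSL1 siRNA it was at 8.03, 7.79 and 8.00, against 8.00, 7.98 and 7.93, with a log2 difference of -0.02. Atf3 lay above its own control in 14 of 15 knockdown arrays, MSL1 array B being the exception. How many of all genes tested reached such a count was not worked out.

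Ddit3 was at 7.74, 7.73 and 7.62 in the NSL1 arrays, against 7.47, 7.24 and 7.16 in their controls, and rose by 0.40 ± 0.06 (SE, n = 3, limma adjusted p = 5.735e-05) with no overlap. With MOF siRNA in PGK12.1 it was at 6.64, 6.63 and 6.95, against 6.46, 6.29 and 6.65, above its own control in 3 of 3 experiments. That rise was 0.27 ± 0.06 (SE, n = 3, limma adjusted p = 0.004275). In the double knockdown it was at 7.39 and 7.54, against 7.24 and 7.16, and in WD44 at 8.47 and 8.51, against 8.33 and 8.31, without passing in either (0.22, limma adjusted p = 0.06831, and 0.17, limma adjusted p = 0.1347). In MSL1 arrays Ddit3 differed by 0.03.

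**Figure D2:**
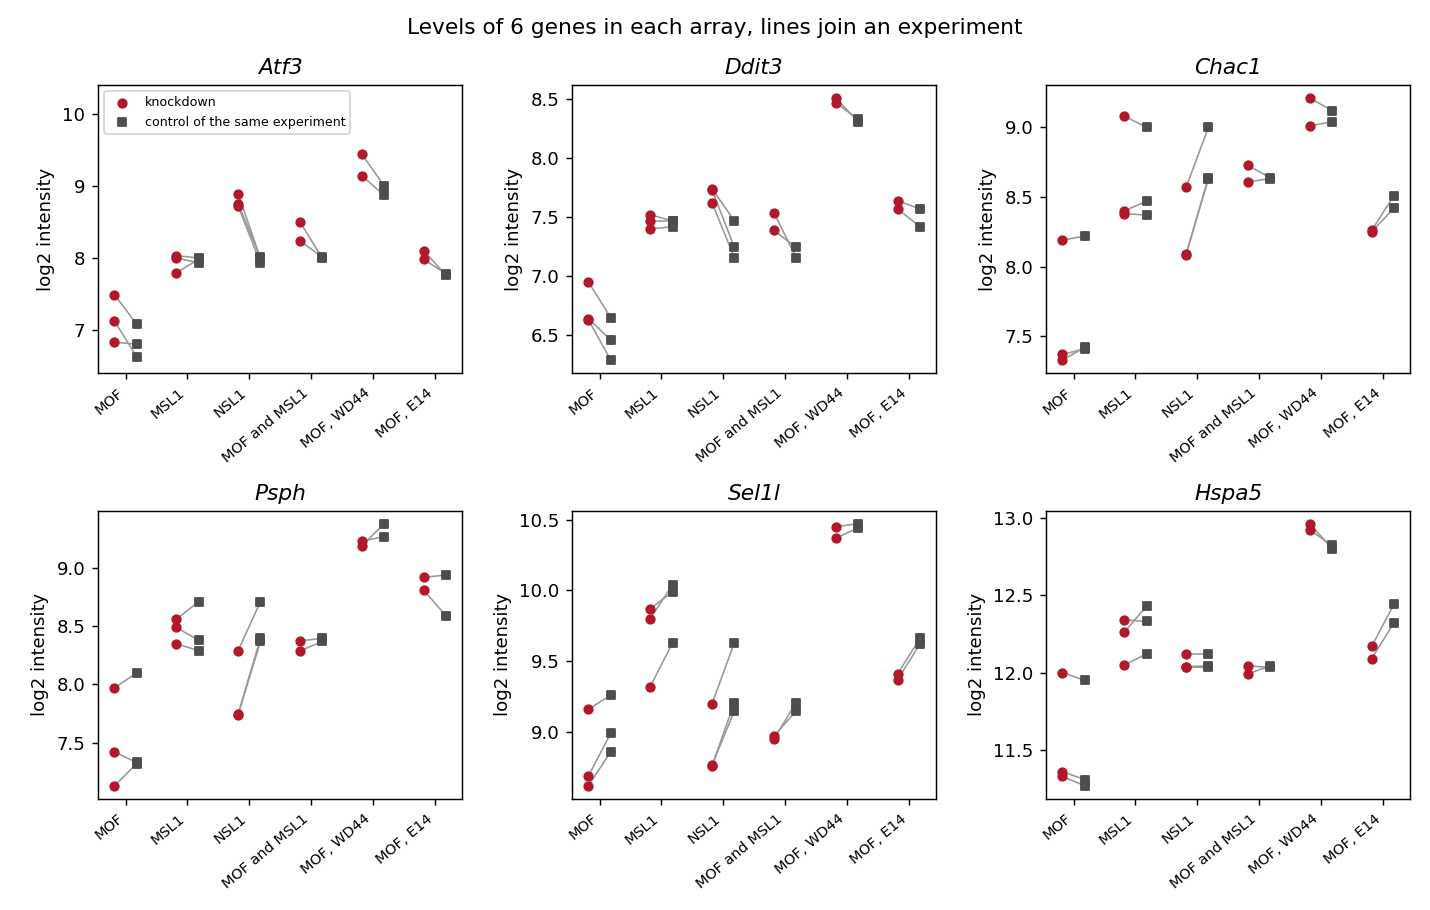
Log2 intensity of 6 genes in each knockdown array (red circles, left) and in the control of the same experiment (dark squares, right), joined by a line; PGK12.1 cells unless WD44 or E14 is named, and a control shared by 2 knockdowns is drawn for each. Atf3 and Ddit3 lie above their controls in the 3 NSL1 arrays, Chac1, Psph and Sel1l below them, and Hspa5 is below its controls in E14 and above them in WD44.

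Nupr1 and Trib3, both stress-induced regulators that lie downstream of ATF4, did not follow Atf3 in the NSL1 arrays. Nupr1 was at 8.52, 9.19 and 9.23 in the NSL1 arrays, against 8.96, 9.79 and 9.62, below its own control in 3 of 3. It fell by 0.44 ± 0.07 (SE, n = 3, limma adjusted p = 7.192e-05). Its level in the controls A to E ran between 8.32 and 9.79, and without the replicate block the log2 difference was -0.06 (limma adjusted p = 0.8935). Trib3, a pseudokinase that restrains ATF4 and CHOP, was at 7.79, 7.44 and 7.45 in the NSL1 arrays, against 7.93, 7.67 and 7.70, and fell by 0.20 ± 0.05 (SE, n = 3, limma adjusted p = 0.007083). With MOF siRNA in PGK12.1 it was instead at 8.27, 8.20 and 8.80, against 8.19, 8.13 and 8.45, and rose by 0.17 ± 0.06 (SE, n = 3, limma adjusted p = 0.04073). The rise rested on experiment 3, at 0.35. Without either array of that experiment the difference was 0.075 (limma adjusted p = 0.405), and experiment 3 was also the one without a second round of siRNA. Neither Trib3 call held without the replicate block (limma adjusted p = 0.08531 for NSL1 and 0.336 for MOF). Trib3 was also above its control in the double knockdown (0.14 and 0.15) and in WD44 (0.15 and 0.16), without being called. In E14 it was at -0.03 and -0.02. The difference between the NSL1 and MOF terms was -0.37 for Trib3 (limma adjusted p = 0.005906) and -0.53 for Nupr1 (limma adjusted p = 0.002377), and without the replicate block it was -0.36 and -0.14 and passed for neither (limma adjusted p = 0.1108 and 0.8707). Cebpb, a partner of ATF4 on CARE, and Xbp1 were called in none of the 6 comparisons, with differences of -0.07 to 0.14 for Cebpb and -0.10 to 0.16 for Xbp1.

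Of the 3 other stress effectors, Chac1, an enzyme that degrades glutathione and a sensitive ATF4 target, showed the smallest adjusted p among the members. It was at 8.57, 8.09 and 8.09 in the NSL1 arrays, against 9.0, 8.63 and 8.64 in their controls. It fell by 0.52 ± 0.05 (SE, n = 3, limma adjusted p = 7.951e-07), with no overlap. In E14 it was at 8.25 and 8.26 with MOF siRNA, against 8.42 and 8.51, a fall of 0.21 ± 0.06 (SE, n = 2, limma adjusted p = 0.04101). MOF siRNA in PGK12.1 gave Chac1 levels of 7.33, 7.37 and 8.19, against 7.42, 7.41 and 8.22 (limma adjusted p = 0.466). In the double knockdown it was at 8.61 and 8.73, against 8.63 and 8.64 (limma adjusted p = 0.7033). The fall in the NSL1 arrays was -0.37 without the replicate block and missed the threshold (limma adjusted p = 0.06459). Ppp1r15a (GADD34), which brings the phosphatase to eIF2, was at 8.54, 8.57 and 8.54 in the NSL1 arrays, against 8.47, 8.32 and 8.20. Its rise of 0.21 ± 0.08 (SE, n = 3, limma adjusted p = 0.04375) was lost in 7 of 14 alternatives, at limma adjusted p of up to 0.2493. It was lost without any single array of experiments D and E, at log2 differences of 0.15 to 0.22. It was also lost without the replicate block (limma adjusted p = 0.07001), with quantile normalization (limma adjusted p = 0.08623) and with no filter on low values (limma adjusted p = 0.07107). Vldlr, a lipoprotein receptor that ATF4 can induce, was called in none of the 6 comparisons and reached 0.21 with MOF siRNA in PGK12.1 (limma adjusted p = 0.06065).

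The 10 measured amino acid genes split within the NSL1 arrays. The serine and one-carbon enzymes Psph, Phgdh and Shmt2 fell, the glutamine transporter Slc38a2 (SNAT2) rose, and 6 were not called, so that 4 of 10 were called (40%, against 39.8% of probesets). Psph, the last enzyme of serine synthesis, was at 8.29, 7.75 and 7.74 in the NSL1 arrays, against 8.71, 8.39 and 8.37, and fell by 0.53 ± 0.07 (SE, n = 3, limma adjusted p = 4.132e-05). Phgdh, the first enzyme, was at 8.85, 8.62 and 8.41, against 9.34, 9.04 and 9.07, and fell by 0.49 ± 0.10 (SE, n = 3, limma adjusted p = 0.0007912). Knockdown and control arrays did not overlap for either gene.

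Psat1, which acts between them, was at 11.95, 12.13 and 12.02, against 11.98, 12.21 and 12.11, and did not pass (-0.07, limma adjusted p = 0.2737). Shmt2, the mitochondrial enzyme that passes carbon from serine to folate, was at 11.17, 11.14 and 11.01, against 11.37, 11.39 and 11.28, and fell by 0.23 ± 0.05 (SE, n = 3, limma adjusted p = 0.0007609). It lay below its own control in 3 of 3 NSL1 arrays. Mthfd2, the next mitochondrial folate enzyme, was at 10.54, 10.63 and 10.62, against 10.68, 10.78 and 10.83, and missed the threshold (-0.15, limma adjusted p = 0.05368). Asns (asparagine synthetase), a textbook ATF4 target, was at 13.21, 13.23 and 13.17, against 13.18, 13.25 and 13.22, with a difference of -0.02 and a 95% interval from -0.11 to 0.08.

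Slc38a2 was at 12.19, 12.36 and 12.33 in the NSL1 arrays, against 12.02, 12.20 and 12.23, and rose by 0.15 ± 0.04 (SE, n = 3, limma adjusted p = 0.01309). In PGK12.1 cells with MOF siRNA it was at 11.38, 11.36 and 11.95, against 11.28, 11.17 and 11.73, and rose by 0.17 ± 0.05 (SE, n = 3, limma adjusted p = 0.01399). It was the only amino acid gene called there (1 of 10, or 10%, against 23.4% of probesets). The NSL1 rise missed the threshold without NSL1 array C or D (0.13 and 0.14, limma adjusted p = 0.08338 and 0.06332) and with experiments A to C left out (0.13, limma adjusted p = 0.1151). The MOF rise missed it without either array of experiment 2 or 3 (0.16 and 0.145, limma adjusted p = 0.07783 and 0.09345) and without the replicate block (limma adjusted p = 0.1187). Asns was at 11.81, 11.78 and 12.54 with MOF siRNA, against 11.77, 11.65 and 12.35, above its control in 3 of 3 without passing (0.12, limma adjusted p = 0.06859). The transporter subunits Slc7a5 and Slc3a2 differed by -0.13 to 0.03 over the 6 comparisons, with none called.

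In WD44 Shmt2 was at 11.46 and 11.47 with MOF siRNA, against 11.73 and 11.65, and fell by 0.225 ± 0.06 (SE, n = 2, limma adjusted p = 0.02347). Phgdh there was at 9.38 and 9.46, against 9.87 and 9.74, a larger difference with a larger error that just missed (-0.385 ± 0.12, SE, n = 2, limma adjusted p = 0.05143). In these arrays 4 of 5 measured feeder fibroblast markers also rose, with a median of 0.305, and the log2 of their summed level over the 9 markers on the array was 11.41 to 11.49 with MOF siRNA, against 11.25 to 11.28 in the controls. Their part in the WD44 results was not tested. With each array centred on its median 8 of 33 genes were called in WD44, all higher, and Shmt2 was at -0.145 (limma adjusted p = 0.1182). Both WD44 calls were lost without any single array (adjusted p of 0.072 to 0.3247 by limma) and without the replicate block (limma adjusted p = 0.1637 for Atf3 and 0.1773 for Shmt2).

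**Figure D3:**
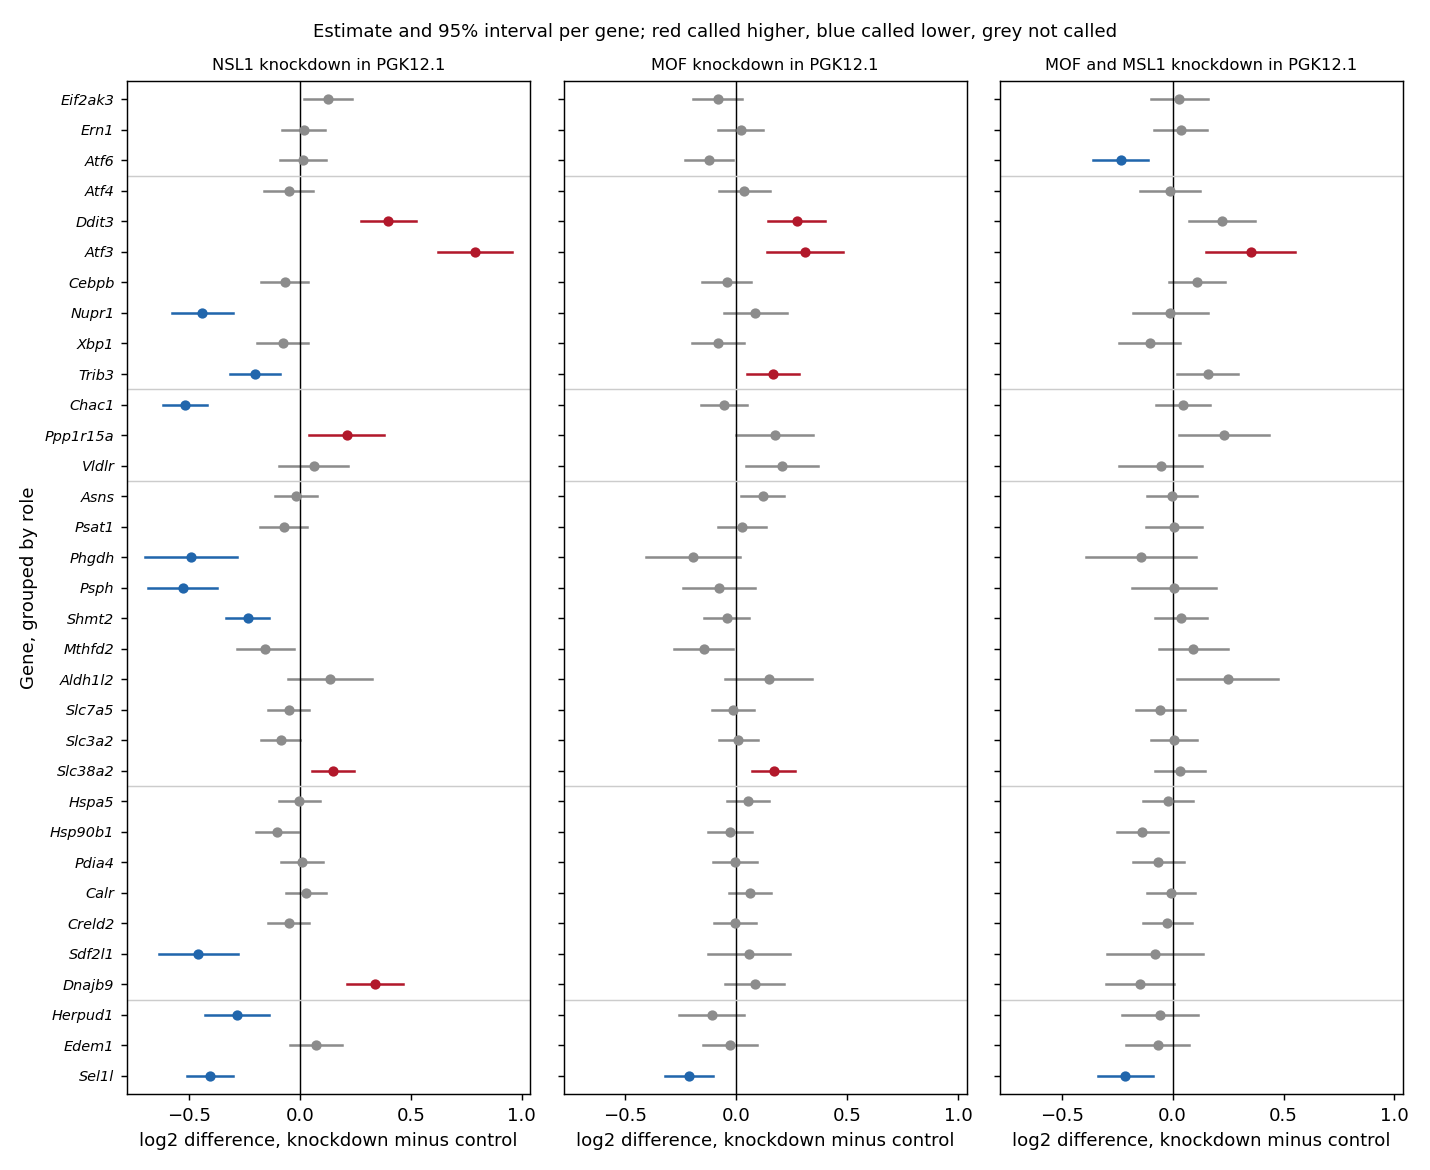
Fitted log2 difference (point) and 95% interval (line) of the 33 genes, grouped by role from sensors at the top to ER degradation at the bottom, in 3 comparisons in PGK12.1. The NSL1 panel holds 5 red (called higher) and 9 blue (called lower) genes, the MOF panel 4 red and 1 blue, and the double knockdown panel 1 red and 2 blue.

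Of the 7 ER chaperones 2 were called in the NSL1 arrays, in opposite directions (28.6%, against 39.8% of probesets). Dnajb9 (ERdj4), a co-chaperone induced through XBP1, was at 9.37, 9.75 and 9.63, against 9.05, 9.39 and 9.33, and rose by 0.34 ± 0.06 (SE, n = 3, limma adjusted p = 0.0003239). Sdf2l1, a partner of the chaperone BiP, was at 10.22, 9.93 and 9.70, against 10.47, 10.37 and 10.47, and fell by 0.46 ± 0.08 (SE, n = 3, limma adjusted p = 0.0004531). Its difference ran from -0.25 in C to -0.77 in E.

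The other 5 chaperones were not called in the NSL1 arrays. Hspa5 (BiP) was at 12.12, 12.04 and 12.04, against 12.12, 12.04 and 12.03, with a 95% interval from -0.09 to 0.09. Hsp90b1 (GRP94) was below its own control in 3 of 3 without passing (-0.10, limma adjusted p = 0.08697). Calr (calreticulin), the disulfide isomerase Pdia4 and Creld2 differed by 0.03, 0.01 and -0.05. By limma 0 of 7 chaperones were called with MOF siRNA in PGK12.1, in WD44 and in the MSL1 and double knockdowns, with 0, 3, 3 and 1 at an unadjusted p under 0.05. The background was 23.4% with MOF siRNA in PGK12.1, 12.4% in WD44, 0.184% with MSL1 siRNA and 6.44% in the double knockdown. In WD44 these included Creld2 at 0.165 (limma adjusted p = 0.06021). In the double knockdown the 10 ER chaperone and ERAD genes had fitted estimates below 0, with Sel1l alone called. Of all genes tested, 6969 of 13989 had estimates below 0 there. Against their own controls, 1 of the 10 lay above 0 in array D and 2 in array E.

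Hspa5 was the 1 of 33 members (3.03%) called for a difference between lines in the response to MOF siRNA. With 1 call, the members cannot be set apart from the background shares given below. In E14 it was at 12.17 and 12.09 with MOF siRNA, against 12.44 and 12.32, and fell by 0.25 ± 0.05 (SE, n = 2, limma adjusted p = 0.0136). In WD44 it was at 12.96 and 12.92, against 12.80 and 12.82, above its control in 2 of 2 without passing (0.13, limma adjusted p = 0.127). In PGK12.1 it was above its control by 0.05 or 0.06 in 3 of 3 experiments (0.05, limma adjusted p = 0.428). The PGK12.1 response exceeded that of E14 by 0.30 ± 0.07 (SE, limma adjusted p = 0.03836, 2.5% of probesets called), and the WD44 response exceeded it by 0.38 ± 0.08 (SE, limma adjusted p = 0.02999, 1.39% called). Without experiments A to C, left out after seeing the data, both missed narrowly (limma adjusted p = 0.05374 and 0.05615). Without the replicate block neither held (limma adjusted p = 0.6867 and 0.7143), and both were also lost with no filter on low values. Between PGK12.1 and WD44 0 of 33 genes were called by limma, with 6 at an unadjusted p under 0.05, against 2.21% of probesets.

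Of the ER-associated degradation (ERAD) genes, Sel1l, the adaptor of the HRD1 ubiquitin ligase, lay below its own control in 15 of 15 knockdown arrays, by 0.02 to 0.45. How many of all genes tested lay on the same side of their control in every array was not counted. In the NSL1 arrays Sel1l was at 9.20, 8.77 and 8.76, against 9.63, 9.15 and 9.21, and fell by 0.40 ± 0.05 (SE, n = 3, limma adjusted p = 1.073e-05). With MOF siRNA in PGK12.1 it was at 8.62, 8.69 and 9.16, against 8.86, 8.99 and 9.26, and fell by 0.21 ± 0.05 (SE, n = 3, limma adjusted p = 0.00659). In the double knockdown it was at 8.97 and 8.95, against 9.15 and 9.21, and fell by 0.21 ± 0.06 (SE, n = 2, limma adjusted p = 0.04249). In E14 it was at 9.37 and 9.41, against 9.62 and 9.66, and fell by 0.25 ± 0.06 (SE, n = 2, limma adjusted p = 0.02343).

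With MSL1 siRNA Sel1l was at 9.87, 9.80 and 9.32, against 9.99, 10.04 and 9.63, a difference of -0.23 of the same size that missed the threshold (limma adjusted p = 0.08055). In WD44 it was at 10.37 and 10.45, against 10.44 and 10.47 (-0.045, limma adjusted p = 0.6648). Centring each array on its median added 0.08 to WD44 differences, more than that fall, so its direction there depends on the processing. The 15 arrays share controls in experiments C, D and E, and the MOF call in PGK12.1 was lost without either array of experiment 2 (-0.17, limma adjusted p = 0.07542) and without the replicate block (limma adjusted p = 0.6306). Herpud1, an ER membrane protein of the same ligase, was at 9.49, 9.49 and 9.38 in the NSL1 arrays, against 9.67, 9.76 and 9.85, and fell by 0.28 ± 0.07 (SE, n = 3, limma adjusted p = 0.003379). Edem1, which hands misfolded glycoproteins to ERAD, was called in none of the 6 comparisons, at 0.07 in the NSL1 arrays and -0.15 in the MSL1 arrays (limma adjusted p = 0.3184 and 0.3741).

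The 4 calls in E14 (Hspa5, Sel1l, Atf6 and Chac1) and the 3 in the double knockdown (Atf3, Atf6 and Sel1l) came from 2 experiments each. In E14 they were lost without any single array, with limma adjusted p between 0.09944 and 0.3282, and without the replicate block or with the E14 arrays alone. The Chac1 call held in 1 of 12 alternatives and the Atf6 call in 3 of 12, both being lost also with median centring (limma adjusted p = 0.08113 for Chac1 and 0.06644 for Atf6), without a filter (0.07631 and 0.07995) and with experiments A to C left out (0.06287 and 0.05178). The Hspa5 and Sel1l calls held in 6 of 12 each. In the double knockdown, leaving out 1 array left 0 or 1 of the 3. Over all alternatives the Atf3 call held in 4 of 12, the Atf6 call in 7 and the Sel1l call in 5.

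Set side by side, the 10 amino acid genes and the 10 ER chaperone and ERAD genes differed by 0.13 or less in their medians per experiment. The amino acid median minus the ER median was -0.075, -0.03 and -0.06 in NSL1 arrays C, D and E, where the amino acid genes were at -0.08 to -0.09 and the ER genes at -0.01 to -0.05. It was 0.045, 0.13 and 0.075 in MSL1 arrays A, B and C, 0.05 and 0.10 in the double knockdown, and 0.065 and 0.115 in E14. In these 7 arrays the ER genes lay between -0.035 and -0.135 and the amino acid genes between -0.01 and 0.03. In WD44 it was -0.03 and -0.085, and in the MOF arrays of PGK12.1 it was -0.065, 0.02 and 0.045, which have no common direction. The median over all genes tested was between -0.03 and 0.01 in the 15 arrays. These medians are given as a description, since the members share arrays and were chosen with earlier results of these data known.

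**Figure D4:**
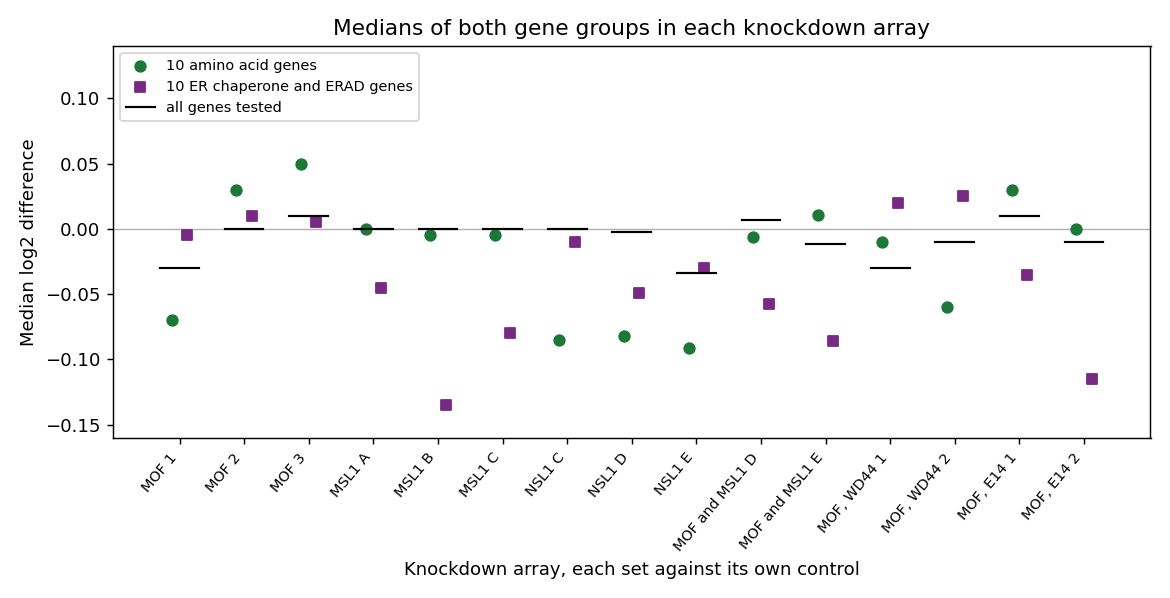
Median log2 difference of the 10 amino acid genes (green circles) and the 10 ER chaperone and ERAD genes (purple squares) in each of the 15 knockdown arrays, with the median of all tested genes as a black line. The green circles lie below the squares in the 3 NSL1 arrays and above them in the MSL1, double knockdown and E14 arrays.

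The NSL1 arrays were then compared with the other knockdowns in tests of the difference itself. Against the double knockdown, whose controls D and E they share, 13 of 33 genes differed (3 higher, 10 lower), against 26.5% of probesets. Chac1 was -0.52 in the NSL1 arrays and 0.05 in the double knockdown, a difference of -0.56 ± 0.06 (SE, limma adjusted p = 1.294e-05). Psph was -0.53 and 0.01 in the fit, a difference of -0.53 ± 0.09 (SE, limma adjusted p = 0.0005671). Against their own controls, double knockdown arrays D and E were instead at -0.02 and -0.08 for Psph. Dnajb9 was 0.34 in the NSL1 arrays and -0.15 in the double knockdown, a difference of 0.49 ± 0.07 (SE, limma adjusted p = 0.0002346). Atf3 was 0.79 and 0.35, a difference of 0.44 ± 0.09 (SE, limma adjusted p = 0.00349). Without the replicate block 4 of 33 genes differed (Atf3, Dnajb9, Shmt2 and Mthfd2), while Chac1 was at -0.42 and Psph at -0.41 without passing (limma adjusted p = 0.1468 and 0.07384).

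Against MOF siRNA in PGK12.1, with other controls, 6 of 33 differed (1 higher, 5 lower), against 16% of probesets. Chac1 was -0.52 in the NSL1 arrays and -0.05 with MOF siRNA, a difference of -0.46 ± 0.07 (SE, limma adjusted p = 0.0007528). Sdf2l1 was -0.46 and 0.06, a difference of -0.51 ± 0.12 (SE, limma adjusted p = 0.01063). Atf3 was 0.79 and 0.31, a difference of 0.48 ± 0.11 (SE, limma adjusted p = 0.01078). Without the replicate block 2 of 33 differed (Atf3 and Sdf2l1) and Chac1 was at -0.32 without passing (limma adjusted p = 0.4796), and with quantile normalization Atf3 just missed (limma adjusted p = 0.05076). In the NSL1 arrays 2 of 4 measured primitive endoderm markers rose, with a median of 0.18 over the 4 and, over the 5 on the array, a log2 of the summed level of 8.85 to 9.12, against 8.65 to 9.03 in the controls. Of 9 ES cell markers 2 fell there, with a median of -0.08 and a log2 of the summed level of 15.23 to 15.28, against 15.31 to 15.35 in the controls. With MOF siRNA in PGK12.1 3 of the 9 fell, with a median of -0.10 and a summed level of 14.92 to 15.65, against 15.01 to 15.74. In E14 1 fell, with a median of -0.045 and a summed level of 15.20 to 15.23, against 15.24 to 15.26. The part of these markers in the results was not tested.

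A wider list of 69 genes of both pathways, of which 62 were measured, had 10 higher and 15 lower in the NSL1 arrays, or 40.3%, near the 39.8% of all probesets. MOF siRNA in PGK12.1 gave 7 higher and 13 lower (32.3%, against 23.4% of probesets), and the double knockdown 4 and 3 (11.3%, against 6.44%). MSL1 siRNA gave 0 and 0 (against 0.184%), WD44 2 and 3 (8.06%, against 12.4%), and E14 1 and 7 (12.9%, against 8.33%). Dnajc10 (ERdj5), an ER disulfide reductase, fell in 4 comparisons, by 0.60 in the NSL1 arrays, 0.51 with MOF siRNA in PGK12.1, 0.44 in the double knockdown and 0.54 in E14 on the log2 scale. Its limma adjusted p was 2.702e-06 in the NSL1 arrays and 8.075e-05 with MOF siRNA in PGK12.1. Hspa13, a small ER-associated chaperone of the HSP70 family, fell by 0.41 in the NSL1 arrays, 0.45 with MOF siRNA in PGK12.1 and 0.39 in E14 (limma adjusted p = 7.938e-05, 0.0002068 and 0.008147). Ddit4 (REDD1) and Sesn2, inhibitors of mTORC1 that ATF4 and other stress factors induce, rose by 0.66 and 0.35 with MOF siRNA in PGK12.1, by 0.63 and 0.41 in the double knockdown, and by 0.56 and 0.42 in the NSL1 arrays. The log2 response of Ddit4 to MOF siRNA was 0.66 in PGK12.1 and -0.115 in E14, a difference of 0.78 (limma adjusted p = 0.02143). That of Sesn2 was 0.35 in PGK12.1 and -0.01 in WD44, a difference of 0.36 (limma adjusted p = 0.0376). Values beyond the 4 genes with the smallest adjusted p in a comparison, here and in the next paragraph, were added after they had been seen.

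The eIF2 kinases other than PERK were among the genes that fell. Eif2ak2 (PKR) fell by 0.67 and Eif2ak1 (HRI) by 0.49 in the NSL1 arrays (limma adjusted p = 1.318e-06 and 9.363e-06). Eif2ak2 fell by 0.34 and Eif2ak4 (GCN2) by 0.28 with MOF siRNA in WD44 (limma adjusted p = 0.01657 for both). Eif2ak4 was also called lower in the NSL1 arrays, by 0.38, and with MOF siRNA in PGK12.1, by 0.30. Eif2ak1 fell by 0.35 with MOF siRNA in PGK12.1. Edem2, an ERAD mannosidase, fell by 0.81 in the NSL1 arrays (limma adjusted p = 9.785e-06) and by 0.31 with MOF siRNA in PGK12.1. In E14 the genes with the smallest adjusted p on the list, after Dnajc10, were the COPII coat gene Sec24d, which fell by 0.39, Hspa13, and Impact, an inhibitor of GCN2, which rose by 0.24. Sec24d also fell with MOF siRNA in PGK12.1, by 0.40. Impact also rose in the NSL1 arrays, by 0.31, with MOF siRNA in PGK12.1, by 0.26, and in the double knockdown, by 0.21. The proapoptotic gene Bbc3 rose by 0.37 in the double knockdown and by 0.21 in the NSL1 arrays. In WD44 Creb3 rose by 0.32 and Aldh18a1, of proline synthesis, fell by 0.21. Aldh18a1 also fell by 0.30 in the NSL1 arrays and by 0.22 with MOF siRNA in PGK12.1.

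The promoter motifs printed above were set beside the calls. Of the 7 measured genes with CARE, Atf3 rose and Chac1, Herpud1, Nupr1 and Trib3 fell in the NSL1 arrays, while Asns and Vldlr were not called. Over all genes tested with CARE in the promoter, 109 of 277 were called in those arrays (50 higher, 59 lower), or 39.4% against 39.8% of probesets, with a median difference of -0.0016. Of the 4 genes with the ER stress element, none was called in the NSL1 arrays, and Hspa5 in E14 was the only call over the 6 comparisons. Over all tested genes with that element, 8 of 18 were called in the NSL1 arrays (2 higher, 6 lower), or 44.4%. That share too was near the background. In E14 5 of 18 were called (2 higher, 3 lower), or 27.8% against 8.33% of probesets. The double knockdown had 3, all lower (16.7%, against 6.44%). The share was 22.2% with MOF siRNA in PGK12.1, against 23.4%, and 5.56% in WD44, against 12.4%. MSL1 siRNA called 0 of 18.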

How the data were processed

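The deposited values are log2 intensities per probeset, which the authors made with Affymetrix Expression Console and RMA, per the submitters' processing notes; versions, build and whether sets of arrays were normalized together are not given in the sources used here. They were used as deposited, since sets of arrays differ in median. Of 35556 probesets, 21789 had 1 gene symbol, 1621 several and 12146 none; 21698 of the single symbols were matched to RefSeq by gene identifier. Probesets with 1 or several symbols and a mean of at least 6 were tested.

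The values were fitted in 1 model over 27 arrays with limma 3.58.1 in R 4.3.3, with the experiment as a block and a term per knockdown (9 residual degrees of freedom, prior 6.02), Benjamini-Hochberg adjusted over 16283 probesets and called under 0.05. The pairing comes from the labels, which give each experiment its own control; deviations from group means correlated with those of the own control at -0.10 to 0.87. P-values rest on 1 estimate of the spread per probeset, shared by all 27 arrays. For WD44, E14 and the double knockdown they therefore draw largely on the spread of the other groups. The number of arrays limits the precision. Members, gene lists and tests were chosen with earlier results of these data known. The genes named were the members, the targeted genes and, from the list of 69 pathway genes, up to 4 per comparison with the smallest adjusted p. Alternatives were no block, array centring, quantile normalization, other filters, eBayes with trend, arrays of 1 line, each array left out and, added after seeing the data, experiments A to C left out. The fitting was tested on simulated data.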

Additional observations from a re-analysis of the deposited data

Results flagged for a closer look

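Psph stood apart in 1 of the 5 control arrays A to E. It was at 8.71 in control C, against 8.29, 8.38, 8.39 and 8.37 in controls A, B, D and E, which is farther from its nearest neighbour than Dixon's 95% criterion allows for 5 values. Chance flags about 1 in 20 such groups, and 33 genes were looked at. Control C is the one against which NSL1 array C and MSL1 array C were set, where Psph was at 8.29 and 8.56. In NSL1 arrays D and E Psph was at 7.75 and 7.74, against 8.39 and 8.37. Without control C the NSL1 difference was -0.53 (limma adjusted p = 0.0002129).

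Hspa5 was flagged because its response to MOF siRNA differed between lines in a test of the difference itself. The response in PGK12.1 exceeded that in E14 by 0.30 on the log2 scale (limma adjusted p = 0.03836), with levels above control in 3 of 3 PGK12.1 arrays and below control in 2 of 2 E14 arrays. The response in WD44 exceeded that in E14 by 0.38 (limma adjusted p = 0.02999), with levels above control in 2 of 2 WD44 arrays. In each test 1 of 33 members was called (3.03%), against 2.5% and 1.39% of probesets. Cell line and set of arrays cannot be told apart, and PGK12.1 experiments 1 and 2 also had a second round of siRNA.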

How the results depend on the processing

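Of the values for single genes under the alternatives, 397 kept their direction and side of the threshold, 126 kept the direction and missed it, and 4 changed sign without being called there. Those 4 were Cebpb in NSL1 minus double without the replicate block (0.0136), and Pdia4 as the mean of its probesets with MOF in PGK12.1 (0.03), in the double knockdown (0.0305) and in E14 (-0.0175). Without the replicate block, called probesets numbered 1250 for MOF in PGK12.1, 10 for MSL1, 1612 for the double knockdown, 99 in WD44, 109 in E14, 16 for PGK12.1 minus WD44, 11 for PGK12.1 minus E14, 5 for WD44 minus E14, 1992 for NSL1 minus double and 663 for NSL1 minus MOF, and members called were 2 for MOF in PGK12.1, 0 in WD44, 0 in E14, 0 and 0 in the differences from E14, 4 for NSL1 minus double and 2 for NSL1 minus MOF. Median centring gave 8 members in WD44 and 2 in E14, and moved the share of higher calls to 40.1% in place of 59.2% for PGK12.1 minus WD44, 64.2% in place of 38.9% for WD44 minus E14 and 54.4% in place of 42.7% for NSL1 minus double. Quantile normalization gave 693 probesets in the double knockdown, 4 members in WD44, and 658 and 641 probesets for PGK12.1 minus WD44 and minus E14. Without a filter there were 15 probesets for MSL1, 690 and 0 members in the double knockdown, 1 member in WD44, 857 and 2 members in E14, and 190, 168 and 87 probesets for PGK12.1 minus WD44, PGK12.1 minus E14 and WD44 minus E14, with 0 members in each difference from E14. A mean of at least 7 gave 68 probesets and 1 member for MSL1, 4 members in WD44, and 354 probesets and 2 members for WD44 minus E14, and eBayes with trend and a robust prior gave 71 and 1, 4, and 395 and 2. With arrays of 1 line alone there was 1 member in the double knockdown, and 0 probesets and 0 members in WD44 and in E14, where 1 residual degree of freedom was left. Leaving out experiments A to C, chosen after seeing the data, gave 0 members in the double knockdown, 1 in WD44, 2 in E14, 239 probesets for PGK12.1 minus WD44, 0 members for PGK12.1 minus E14, and 76 probesets and 0 members for WD44 minus E14. Leaving out 1 array at a time gave 2288 to 3361 probesets and 3 to 6 members for MOF in PGK12.1, 3 to 13 and 0 for MSL1, 4791 to 6279 and 12 to 14 for NSL1, 130 to 519 and 0 to 1 for the double knockdown, 161 to 702 and 0 in WD44, and 55 to 325 and 0 in E14. The cause of these changes was not tested, apart from the fewer arrays. Signal over background was not analysed here, so how far the dim genes Vldlr and Aldh1l2 stood above it was not tested.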
